A study of Mus musculus with 194 samples.

Results

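Nfia, Nfib, Nfic and Nfix are the 4 mouse genes of the nuclear factor I family, and this section describes transposon insertions at them across mouse cortex, forebrain and a cell line. An insertion was counted for a gene when it lay in the gene's body on GRCm38 or within 10 kb of either end, and counts are given per 1000000 insertions of each deposited table (IPM). These are 4 of 21631 protein-coding loci on the autosomes and X.

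Nuclear factor I proteins bind DNA as dimers, the full site being TTGGC and GCCAA separated by 5 bases, and they can activate or repress genes nearby. In the developing cortex Nfia and Nfib take part in the start of gliogenesis, and mice that lack Nfia, Nfib or Nfix have defects of the corpus callosum, hippocampus or ventricles. Nfia and Nfix remain expressed in astrocytes, Nfib is also expressed in deep-layer projection neurons, and Nfic is best known for its part in tooth root formation.

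In calling cards a transposase, alone or joined to a DNA-binding protein, inserts a transposon into TTAA sequences close to the place it occupies on chromatin, so an insertion count records where the transposase reached and is no measure of expression. The series holds 47 tables, from 46 animals in 11 groups and from N2a, a mouse neuroblastoma line whose experiments were pooled in 1 table. Pups were injected with adeno-associated virus between days 0 and 1 after birth; the transposase is not named in the labels. The self-reporting transposon (SRT) tables were read from RNA of a cortex cut into 10 pieces, and the same site hit in several pieces counts several times.

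The 2 C57bl6J animals received viruses that need no Cre. The 6 Syn1Cre and 6 GFAPCre animals carry Cre lines named after the promoters of a neuronal synaptic vesicle gene and of an astrocyte filament gene, and 6 Syn1CreNeg and 6 GFAPCreNeg animals are labelled as Cre-negative. GFAP-driven Cre can also act in progenitors of neurons, and the labels do not name the line. The 3 Frontflip_GFAPCre and 3 Frontflip_GFAPCreNeg animals are labelled Frontflip, a name the labels do not explain. The 4 Rbp4Cre_TRAP animals gave whole forebrain rather than cortex, and Rbp4 Cre lines are used for layer 5 projection neurons. In Syn1Cre mice labelled SP1, after the promoter-binding factor SP1, cortex was taken on postnatal day 28 from 4 animals (Syn1Cre_SP1_P28) and on day 10 from 3 (Syn1Cre_SP1_P10); the construct is not described, and ages of the other groups are not given. The 3 BrokenHeart animals were read from cortical DNA by inverse PCR.

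The tables held between 443158 and 1364948 insertions in Syn1Cre, between 86842 and 95331 in Syn1Cre_SP1_P10, between 24408 and 57014 in Rbp4Cre_TRAP, and between 2341 and 9601 in Frontflip_GFAPCreNeg, whose values rest on few insertions. Loci of interneuron genes differed with the Cre line: the summed level of 8 such genes was 1407 to 1759 IPM in Syn1Cre, 321 to 415 in GFAPCre and 79.5 to 275 in Rbp4Cre_TRAP, where Dlx2, Dlx5, Lhx6 and Maf were at 0. In the Cre-negative groups that sum was 263 to 420.4 (Syn1CreNeg) and 335 to 461 (GFAPCreNeg), which overlaps GFAPCre. The summed level of 12 astrocyte genes was 696 to 2421 IPM in Syn1Cre, 948 to 1987 in GFAPCre and 199 to 656 in Rbp4Cre_TRAP, where Aldoc was at 0. Syn1Cre and GFAPCre overlapped, and 0 of 11 tested astrocyte genes differed between them by edgeR (adjusted p under 0.05), where 2.15% of all loci did. In GFAPCre animals none of the 12 astrocyte genes was at 0, but also none of the 12 neuron genes, whose sum was 3414 to 4210.

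The loci differ in size and surroundings. Nfia fills chr4:97578066-98118876, a body of 540811 bp with 2 protein-coding neighbours within 500 kb, the nearest being Tm2d1 at 236493 bp. Nfib lies on the same chromosome at chr4:82290173-82506751, with 3 neighbours, the nearest being Zdhhc21 at 291986 bp. Nfic is the smallest at chr10:81396191-81431919, a body of 35729 bp with 52 neighbours. Its lower-numbered flank holds parts of Dohh, Gm48552 and Smim24, while beyond its higher-numbered end the nearest protein-coding gene is Celf5 at 27307 bp. Nfix spans chr8:84704712-84801238, with 39 neighbours and with Lyl1 inside its body. For Nfic in particular, insertions in the lower-numbered flank can belong to a neighbouring promoter.

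The listed starts are shown because the SP1 groups differed from the rest around some of them. RefSeq (GRCm38.p6) gives 1 start for Nfia, 1 for Nfic and 4 for Nfix; none is printed for Nfib. Each line runs from 250 bases before the start to 50 after it, 5′ to 3′ on the gene's strand. Capitals mark TTAA, the insertion sequence, and GC boxes (GGGCGG or CCGCCC on either strand), the motif SP1 is known to bind.
Nfia, chr4:97581693-97581992, plus strand: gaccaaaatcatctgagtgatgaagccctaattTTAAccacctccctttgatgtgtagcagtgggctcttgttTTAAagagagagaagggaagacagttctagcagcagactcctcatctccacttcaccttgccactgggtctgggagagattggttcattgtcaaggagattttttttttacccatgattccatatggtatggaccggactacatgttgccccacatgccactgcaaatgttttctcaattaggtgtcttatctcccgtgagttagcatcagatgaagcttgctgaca
Nfic, chr10:81427124-81427423, minus strand: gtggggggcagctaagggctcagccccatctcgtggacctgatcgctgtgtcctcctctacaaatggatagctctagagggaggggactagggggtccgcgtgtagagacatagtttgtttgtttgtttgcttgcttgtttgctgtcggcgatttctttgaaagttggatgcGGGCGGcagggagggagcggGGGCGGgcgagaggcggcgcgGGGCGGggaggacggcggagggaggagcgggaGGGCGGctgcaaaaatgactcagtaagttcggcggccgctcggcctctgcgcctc
Nfix, chr8:84773361-84773660, minus strand: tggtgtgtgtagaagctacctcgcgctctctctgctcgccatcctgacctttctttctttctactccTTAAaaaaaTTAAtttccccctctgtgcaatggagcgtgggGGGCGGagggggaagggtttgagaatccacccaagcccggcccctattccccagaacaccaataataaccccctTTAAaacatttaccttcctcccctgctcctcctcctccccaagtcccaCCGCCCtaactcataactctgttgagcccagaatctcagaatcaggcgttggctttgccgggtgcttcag
Nfix, chr8:84772826-84773125, minus strand: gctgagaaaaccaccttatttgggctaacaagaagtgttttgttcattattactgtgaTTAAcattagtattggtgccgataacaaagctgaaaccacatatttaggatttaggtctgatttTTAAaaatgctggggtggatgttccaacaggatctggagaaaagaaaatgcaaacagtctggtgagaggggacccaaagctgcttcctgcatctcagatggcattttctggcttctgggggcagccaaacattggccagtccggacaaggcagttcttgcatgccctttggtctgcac

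The Nfic window held 4 GC boxes and 0 TTAA, the first Nfix window shown held 2 GC boxes and 3 TTAA, and the windows of Nfia and of the other Nfix start shown held 0 GC boxes and 2 TTAA each. Of 32851 promoter windows of the same length, 35.7% held a GC box and 52.4% a TTAA. The full nuclear factor I site was in 0 of the 6 windows of these genes and in 0.0365% of all windows, while a single TTGGC or GCCAA was in 46.7% of all windows. A match is only a description of the letters.

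**Figure D1:**
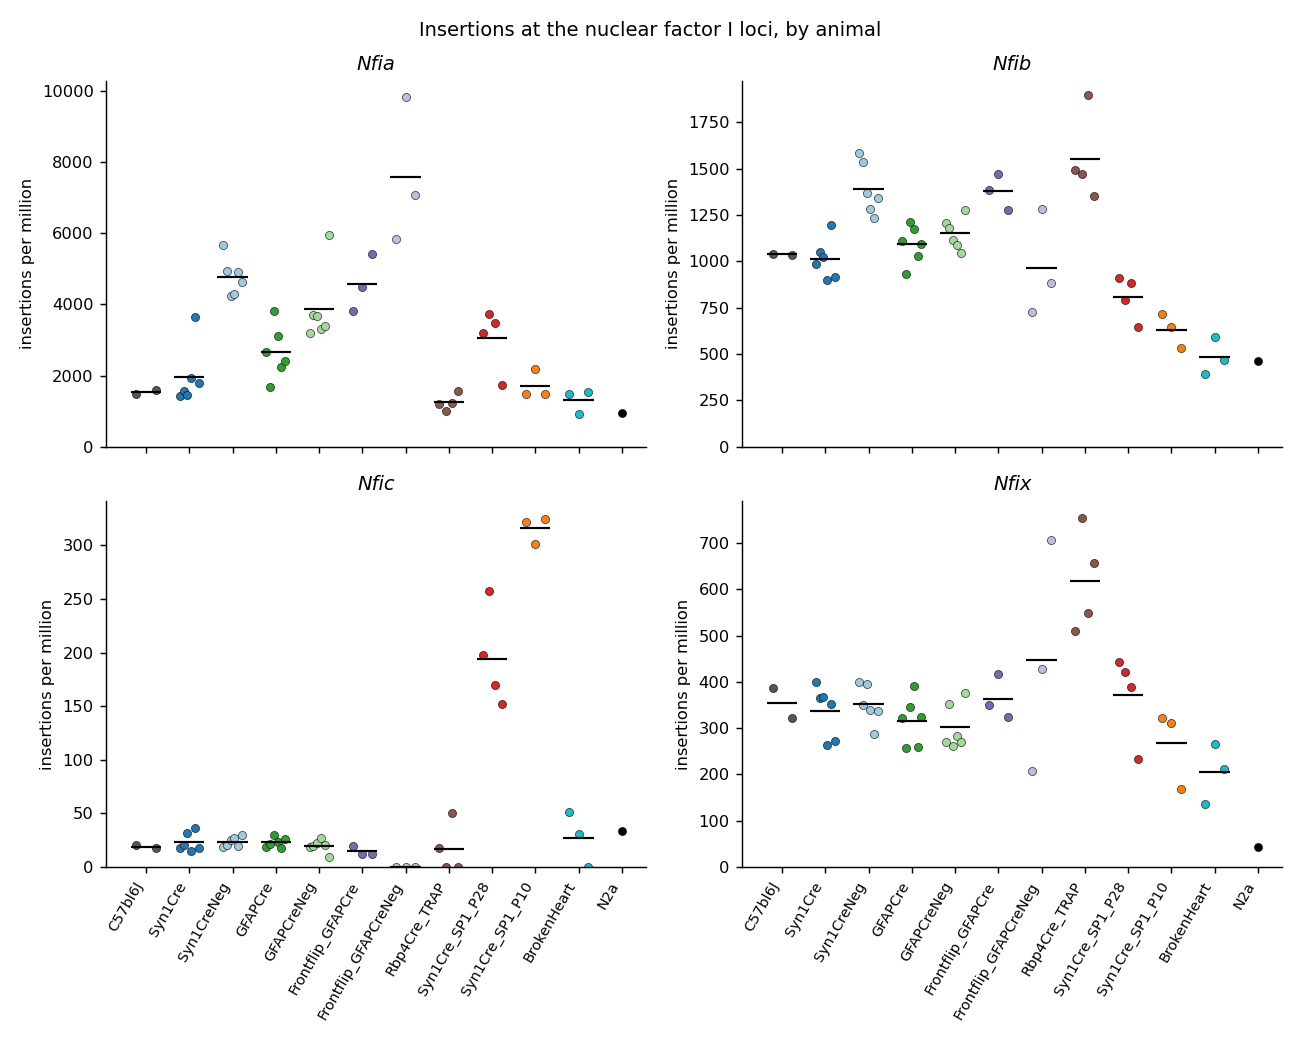
Insertions per 1000000 insertions of each table (IPM, linear y axes from 0) at the Nfia, Nfib, Nfic and Nfix loci; each point is 1 animal, or the pooled N2a table, and each bar is the mean of a group. Nfia is highest in the Cre-negative and Frontflip groups, and Nfic is at 152 to 325 in the 7 SP1 animals and at most 51.5 in every other table.

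Nfia held the most insertions of the family in every group but Rbp4Cre_TRAP, where Nfib held more. Its mean was 1549 ± 83.4 IPM (SD, n = 2) in C57bl6J, 1971 ± 836 (SD, n = 6) in Syn1Cre, 4775 ± 526 (SD, n = 6) in Syn1CreNeg, 2652 ± 744 (SD, n = 6) in GFAPCre and 3870 ± 1034 (SD, n = 6) in GFAPCreNeg. It was 1246 ± 227 (SD, n = 4) in Rbp4Cre_TRAP and 1313 ± 344 (SD, n = 3) in BrokenHeart. The highest mean, 7573 ± 2045 (SD, n = 3) in Frontflip_GFAPCreNeg, rests on 23 to 56 insertions per animal. Between the highest and second group the gap exceeded the larger SD, and between all later neighbours in the order it did not.

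Nfib ranged less between the groups read from RNA. Its mean was highest in Rbp4Cre_TRAP at 1552 ± 238 (SD, n = 4), followed by Syn1CreNeg at 1390 ± 140.1 (SD, n = 6). Syn1Cre lay at 1012 ± 108 (SD, n = 6) and GFAPCre at 1093 ± 102 (SD, n = 6), closer to each other than either SD. The lowest means were 632 ± 90.3 (SD, n = 3) in Syn1Cre_SP1_P10 and 485 ± 98.8 (SD, n = 3) in BrokenHeart.

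Nfix was nearly level between Syn1 and GFAP mice. Its mean was 337 ± 55.3 (SD, n = 6) in Syn1Cre, 316 ± 51.2 (SD, n = 6) in GFAPCre and 351 ± 41.8 (SD, n = 6) in Syn1CreNeg. Rbp4Cre_TRAP was highest at 617 ± 111 (SD, n = 4), its 4 animals lying at 509, 755, 549 and 656. No neighbouring pair of groups in the order of Nfix differed by more than the larger SD.

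Nfic was the sparse member except under SP1. Its mean was 22.8 ± 8.78 (SD, n = 6) in Syn1Cre, 22.8 ± 4.66 (SD, n = 6) in GFAPCre and 18.7 ± 1.89 (SD, n = 2) in C57bl6J. It was 194 ± 45.8 (SD, n = 4) in Syn1Cre_SP1_P28 and 316 ± 13.4 (SD, n = 3) in Syn1Cre_SP1_P10. In Frontflip_GFAPCreNeg no Nfic insertion was seen among 17607, which allows up to 170.4 IPM.

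Per 10 kb of locus, which allows genes to be compared, Nfib was the densest member in Syn1Cre at 42.8 IPM per 10 kb, ahead of Nfia at 35.1, Nfix at 28.9 and Nfic at 4.09. The median over 20832 distinct loci in the same group was 3.32. Nfia, Nfib and Nfix were thus at or above at least 99.1% of loci in Syn1Cre, and Nfic at or above 57.7%. In Syn1CreNeg the order of the first pair was the other way, with Nfia at 85.1 and Nfib at 58.8. In Syn1Cre_SP1_P10 Nfic was the densest of the family, at 56.7 against 30.5 for Nfia, 26.7 for Nfib and 22.9 for Nfix.

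N2a differed most in Nfix. Its single table gave 42.1 IPM at Nfix (95% Poisson interval 29.2 to 58.9, counting error only) and a density at or above 50.9% of loci. The same table gave 947 (881 to 1017) at Nfia, 464 (418 to 513) at Nfib and 33.5 (22.1 to 48.7) at Nfic. Every SRT or BrokenHeart animal had at least 137 IPM at Nfix. With 1 pooled table no test was made.

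Comparisons between groups were tested with edgeR's quasi-likelihood test over all loci, and a locus was called at a Benjamini-Hochberg adjusted p under 0.05. Several comparisons share the 6 Syn1Cre animals, and their results are therefore not independent of one another. Replicates are animals as labelled. By the labels, pieces of several animals were sequenced in shared pools. Animals of the Syn1Cre group shared pools only with one another, so group and pool cannot be told apart in comparisons with Syn1Cre.

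**Figure D2:**
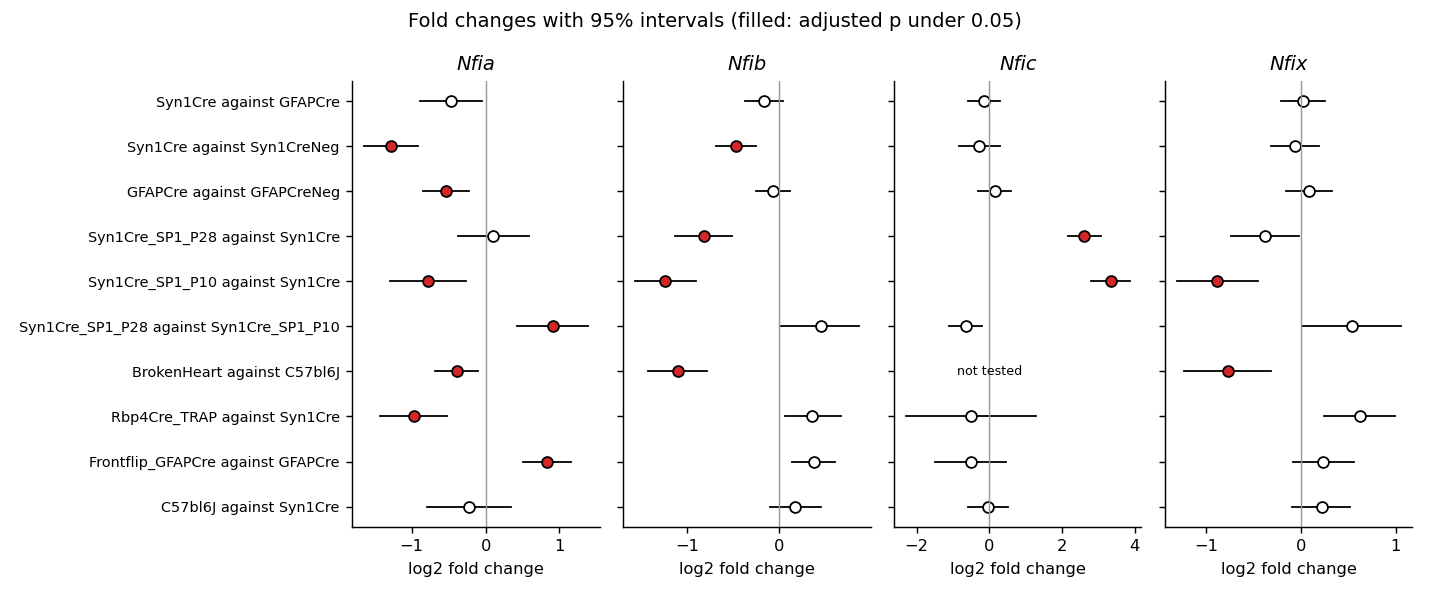
Log2 fold changes (x axis) of each gene in the 10 comparisons (y axis), with bars for the 95% interval; filled points had an adjusted p under 0.05. Nfic lies far to the right in both SP1 comparisons with Syn1Cre, Nfia is filled in 7 of the 10 comparisons, and Nfix in 2.

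The first comparison asked whether Cre in neurons or under the GFAP promoter gave different insertions. Between Syn1Cre and GFAPCre 0 of the 4 loci were called, 1 had an unadjusted p under 0.05 and DESeq2 called 0, where 2.15% of all loci were called. Nfia was 1423, 1578, 1468, 1932, 3631 and 1793 IPM in Syn1Cre replicates 1 to 6, against a lowest of 1666, a median of 2538 and a highest of 3822 in GFAPCre. The 5 other Syn1Cre animals were at most 1932, and Syn1Cre replicate 5, the shallowest table of its group, lay among the highest GFAPCre animals. On the log2 scale Nfia differed by -0.47 (SE 0.20, adjusted p = 0.233). Without Syn1Cre replicate 5 it was -0.76 and called (adjusted p = 0.00116), where 846 of all loci were called, against 248 in the main fit. With Syn1Cre replicates 1 to 3 only, Nfia was at -0.96 (adjusted p = 5.89e-05), where 1634 of all loci were called. A block for the layout of the labels sets Syn1Cre replicates 4 to 6 apart from all other animals, so it too compares replicates 1 to 3 with GFAPCre. With it Nfia was at -0.95 (adjusted p = 0.00266), where 1371 of all loci were called. Nfib differed by -0.17 (95% interval -0.37 to 0.04), Nfic by -0.14 (-0.58 to 0.30) and Nfix by 0.02 (-0.21 to 0.26).

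Against their Cre-negative counterparts, Syn1Cre animals had fewer insertions at Nfia and Nfib. In this comparison 2 of the 4 loci were called, both lower, where 31.0% of all loci were called. No sequencing pool held animals of both groups, so Cre and pool cannot be told apart here. Nfia was between 4225 and 5657 IPM in Syn1CreNeg, with a median of 4765, and at most 3631 in Syn1Cre, so the groups did not overlap. Nfia fell, with a log2 difference of -1.28 (SE 0.18, adjusted p = 1.27e-05), a level 2.43 times lower. Nfib was between 1233 and 1582 in Syn1CreNeg and between 898 and 1198 in Syn1Cre, and fell as well, by -0.47 on that scale (SE 0.11, adjusted p = 0.00162). Nfix (-0.06, 95% interval -0.31 to 0.19) and Nfic (-0.27, -0.83 to 0.30) were not called. With the depth of each table as a covariate, an alternative chosen after the data were seen, Nfib was no longer called (-0.26, adjusted p = 0.226), and Nfia was (-1.01, adjusted p = 0.00932). In that fit 1267 of all loci were called, against 2666 in the main fit.

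GFAPCre and GFAPCreNeg differed at Nfia alone among the 4 loci. Here 1 of 4 was called, lower, and 8.19% of all loci were called. Nfia was 1666 to 3822 IPM in GFAPCre and 3203 to 5941 in GFAPCreNeg, with medians of 2538 and 3528, and the groups overlapped. Its log2 fold change was -0.54 (SE 0.15, adjusted p = 0.0220). The call did not hold with depth as a covariate (0.08, adjusted p = 0.943), a fit that called 0 of all loci, against 754 in the main fit. It was lost too among animals sharing a sequencing pool with the pool as a block (-0.56, adjusted p = 0.190), where 37 of all loci were called. The Nfia call was also lost without GFAPCre replicate 2, 5 or 6 or GFAPCreNeg replicate 6, with adjusted p between 0.0526 and 0.0645. In those fits 386, 594, 559 and 607 of all loci were called. The Cre effect on Nfia differed between the Syn1 and GFAP mice by -0.71 (SE 0.26, adjusted p = 0.209), where 0.607% of loci were called and 0 of the 4 members; 2 had an unadjusted p under 0.05, and DESeq2 was not run on this difference, which was tested after the data were seen.

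Astrocyte marker loci moved with Nfia in both Cre-negative comparisons. All 10 tested astrocyte genes fell in Syn1Cre against Syn1CreNeg, where 31.0% of all loci were called, with a median log2 fold change of -1.64 against 0.01 over all loci, and 5 of 11 fell in GFAPCre against GFAPCreNeg (8.19% of all loci called), with a median of -0.57 against 0.02. Their summed level was 2604 to 3461 IPM in Syn1CreNeg and 1794 to 3826 in GFAPCreNeg, with no gene at 0. The depth of the tables moved with it too, from 97519 to 556145 insertions in Syn1CreNeg and from 208057 to 597230 in GFAPCreNeg, against 600443 to 1505413 in GFAPCre. In bulk tissue, fewer cells of a type and fewer insertions per cell cannot be told apart. The part of either in the Nfia result was not tested beyond the depth covariate.

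**Figure D3:**
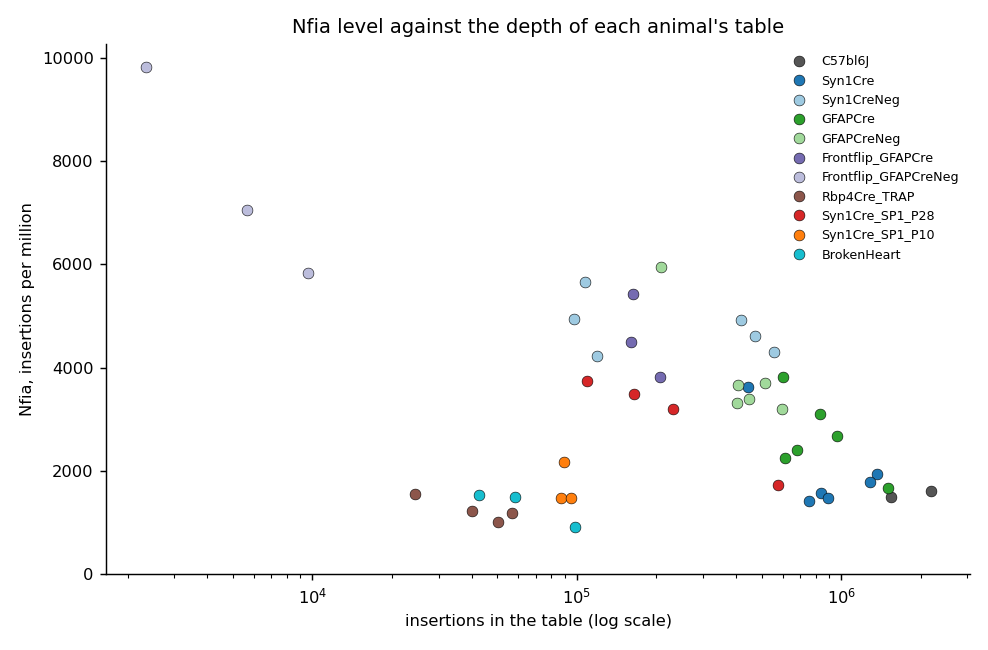
IPM at Nfia (y axis, linear from 0) against the number of insertions in each animal's table (x axis, log scale), coloured by group. The GFAPCreNeg animal at 5941 IPM has the fewest insertions of its group, 208057, and the Rbp4Cre_TRAP and SP1 P10 tables are both shallow and low.

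Within the 4 groups of 6 animals, Nfia and depth were related by a Pearson r of -0.58 in Syn1Cre (permutation p = 0.261, exact), -0.40 in Syn1CreNeg (exact permutation p = 0.383), -0.66 in GFAPCre (exact permutation p = 0.154) and -0.92 in GFAPCreNeg (exact permutation p = 0.0514). Spearman's rho was 0.09, -0.60, -0.49 and -0.49 in the same order (exact permutation p = 0.919, 0.242, 0.356 and 0.356). Leaving out the 2 animals farthest from the median depth turned r to 0.92 in Syn1Cre and 0.47 in GFAPCreNeg, and moved it to 0.04 in GFAPCre, so these relations rest on those animals. Nfib was also lower in deeper Syn1Cre tables, with r = -0.96 (exact permutation p = 0.0125, adjusted 0.200) and rho = -0.83 (exact permutation p = 0.0583), and r = -0.78 without the 2 farthest. None of the 16 relations computed for the 4 genes had an adjusted p under 0.200.

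The Frontflip animals were higher at Nfia than the other GFAPCre animals. Of the 4 loci 1 was called, higher, where 1.64% of all loci were called. Nfia was 3819, 4495 and 5427 IPM in Frontflip_GFAPCre, 2 of them above and 1 just below the highest GFAPCre animal, at 3822. It rose by 0.83 (SE 0.16, adjusted p = 0.00482). The call was lost without Frontflip_GFAPCre replicate 3 (adjusted p = 0.105), where 16 of all loci were called, against 173 in the main fit. Nfib was 1382, 1469 and 1279 against at most 1214. Its log2 difference was 0.38 (95% interval 0.14 to 0.61, adjusted p = 0.0895). Nfib was called without GFAPCre replicate 3 (adjusted p = 0.0106), where 402 of all loci were called. Of the 12 astrocyte genes tested, 3 rose, Slc1a2, Slc1a3 and S1pr1, and their list's summed level was 1980 to 3053 IPM. Their part in the Nfia result was not tested. The tables held 160631 to 205559 insertions in Frontflip_GFAPCre, against 600443 to 1505413 in GFAPCre, and the part of depth was not tested either.

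Rbp4Cre_TRAP forebrain was lower at Nfia than Syn1Cre cortex. Here 1 of the 4 loci was called, lower, and 2.09% of all loci were called. Nfia was 1193, 1013, 1223 and 1557 IPM, with 3 of 4 animals under the lowest Syn1Cre animal, and fell by -0.97 (SE 0.22, adjusted p = 0.0147). The call was lost without Syn1Cre replicate 4 or 6 (adjusted p = 0.0673 and 0.0572), where 97 and 89 of all loci were called, against 224 in the main fit. The call was also lost with DESeq2 (-0.84, adjusted p = 0.0549) and with distinct positions (-0.49, adjusted p = 0.116). Nfib was 1491, 1470, 1897 and 1352, every animal above the Syn1Cre maximum of 1198, and Nfix was likewise above the Syn1Cre maximum of 399.9. Their log2 fold changes were 0.36 (adjusted p = 0.207) and 0.62 (adjusted p = 0.0671) in the main fit. Scaled by total insertions, which moved the median of all loci by 0.24 and the share of higher calls from 9.38% to 42.6%, they were 0.63 (adjusted p = 0.00186) and 0.87 (adjusted p = 0.00304). Both were also called with distinct positions (0.76, adjusted p = 6.63e-04, and 1.18, adjusted p = 1.31e-04) and with DESeq2 (adjusted p = 0.0163 and 0.00476). In the main fit Nfix was called without Syn1Cre replicate 1, 2, 3 or 5 (adjusted p = 0.0265, 0.0417, 0.0344 and 0.0309), where 197, 141, 169 and 472 of all loci were called. Of 10 astrocyte genes tested 1 fell, with a list median of -2.17 against -0.31 over all loci, and 6 of 8 interneuron genes fell. Tissue, method and Cre line differ together and cannot be told apart.

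BrokenHeart, read from DNA, was compared with C57bl6J, read from RNA. The tables held 42511 to 98197 insertions in BrokenHeart and 1545951 to 2186743 in C57bl6J. Readout and depth thus differ together and cannot be told apart. Of the 3 loci tested 3 were called, all lower in BrokenHeart, where 39.9% of loci were called. Nfib was 395, 591 and 470.5 IPM in BrokenHeart and 1040 and 1035 in C57bl6J, and fell by -1.10 (SE 0.16, adjusted p = 1.22e-06). Nfix was 137, 265 and 212 against 386 and 322, and fell by -0.77 (SE 0.23, adjusted p = 0.00701). Nfia fell by -0.39 (SE 0.14, adjusted p = 0.0284), a call lost with either C57bl6J animal left out (adjusted p = 0.123 and 0.304). Counted as distinct positions, Nfia differed by -0.01 (adjusted p = 0.944) and Nfix by 0.15 (adjusted p = 0.679), and only Nfib remained called. The SRT tables count a site once per piece of cortex, with 2304 Nfia insertions at 1010 positions in C57bl6J replicate 1, while BrokenHeart replicate 1 had 87 at 80. Marker loci moved as well: 3 of 3 tested interneuron genes fell, Dlx1 (-3.26), Erbb4 (-1.35) and Nxph1 (-1.10), with summed levels of 399.9 to 458 IPM in BrokenHeart and 1210 to 1246 in C57bl6J. Of 4 astrocyte genes tested 2 rose, Atp13a4 (1.74) and Gja1 (1.79), with sums of 733 to 1253 and 574 to 626, and of 8 neuron genes 1 rose and 4 fell, with sums of 2423 to 2882 and 3526 to 3743. No gene of these lists was at 0, and their part in the results was not tested.

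C57bl6J and Syn1Cre did not differ at these genes by edgeR: 0 of the 4 loci were called, 0 had an unadjusted p under 0.05 and DESeq2 called 0, where 0.810% of all loci were called. The intervals of the log2 fold changes were -0.79 to 0.34 for Nfia, -0.10 to 0.45 for Nfib, -0.59 to 0.51 for Nfic and -0.09 to 0.52 for Nfix. Scaling by total insertions moved the median of all loci by -0.14 and the share of higher calls from 97.4% to 68.5%.

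The SP1 groups stood apart at Nfic. In Syn1Cre_SP1_P28 against Syn1Cre 2 of the 4 loci were called, 1 higher and 1 lower, where 51.5% of all loci were called. Nfic was 198, 257, 170.1 and 152 IPM, from 46, 28, 28 and 88 insertions, against 14.7 to 36.1 in Syn1Cre, and the groups did not overlap. It rose by 2.62 (SE 0.22, adjusted p = 5.13e-10), or 6.16-fold. Nfib was 909.8, 789, 881 and 646 IPM against 898 to 1198 and fell by -0.82 (SE 0.15, adjusted p = 5.74e-05). In the IPM values the highest SP1 animal lay just above the lowest Syn1Cre animal. Nfia (0.10, 95% interval -0.38 to 0.59) and Nfix (-0.38, -0.74 to -0.02, adjusted p = 0.0701) were not called. Nfia was called without Syn1Cre replicate 5 (0.40, adjusted p = 0.0418), and Nfix without Syn1Cre_SP1_P28 replicate 1 (adjusted p = 0.0393).

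In Syn1Cre_SP1_P10 all 4 loci were called, 1 higher and 3 lower, where 40.8% of all loci were called. Nfic was 322, 301 and 325 IPM, above every other table of the series, and rose by 3.34 (SE 0.26, adjusted p = 1.86e-10), or 10.1-fold. Nfib was 714, 646 and 535 and fell by -1.24 (SE 0.16, adjusted p = 1.05e-06). Nfix was 322, 312 and 168, against 264 to 399.9 in Syn1Cre, and fell by -0.88 (SE 0.21, adjusted p = 0.00137). Nfia was 1474, 2172 and 1479 and fell by -0.78 (SE 0.25, adjusted p = 0.0161), a call lost without replicate 1 or 3 (adjusted p = 0.0875 and 0.0859).

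These calls are relative to the other loci, and in the SP1 comparisons the scaling matters. Scaling by total insertions moved the median of all loci by 0.47 at P28 and 0.55 at P10, and the share of higher calls from 50.8% to 80.4% and from 48.1% to 76.1%. On that scale Nfic rose by 3.10 at P28 and 3.89 at P10, and Nfib remained lower by -0.33 and -0.68. Nfix turned to 0.10 at P28 (adjusted p = 0.660) and was -0.34 at P10 (adjusted p = 0.230). Nfia was 0.62 at P28 (adjusted p = 0.0138) and -0.20 at P10 (adjusted p = 0.487). The direction of Nfic thus held under both scalings, and no single direction can be given for Nfia or Nfix.

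Between the SP1 ages Nfia was the called member. Of the 4 loci 1 was called, higher at P28, where 11.2% of all loci were called. Nfia was 3208, 3735, 3487 and 1733 IPM at P28 and 1474, 2172 and 1479 at P10, with P28 replicate 4, the deepest of the 7 tables at 577609 insertions, below P10 replicate 2. It rose by 0.91 (SE 0.24, adjusted p = 0.0160). The call was lost without P10 replicate 1 or 3 (adjusted p = 0.107 and 0.163), where 142 and 7 of all loci were called, against 388 in the main fit. Nfia was not called with distinct positions (0.56, adjusted p = 0.101), and an exact permutation test of log2(IPM + 1) gave p = 0.0857, unadjusted and two-sided. Nfic was lower at P28 in every animal, the log2 difference being -0.65 (SE 0.22, adjusted p = 0.0504), and by total insertions -0.77 (adjusted p = 0.0361). Nfic was called without P28 replicate 2 or 4 (adjusted p = 0.0307 and 0.0479), where 439 and 539 of all loci were called. Without P28 replicate 4, Nfib (adjusted p = 0.0287) and Nfix (adjusted p = 0.00968) were called too, both higher at P28. Total insertions moved the median by -0.12 and the share of higher calls from 66.8% to 44.6%. Of 6 astrocyte genes tested 3 were higher at P28, Slc1a2, S1pr1 and Slc1a3, with summed levels of 1186 to 2661 at P28 and 986 to 1326 at P10 and no gene at 0; their part was not tested.

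**Figure D4:**
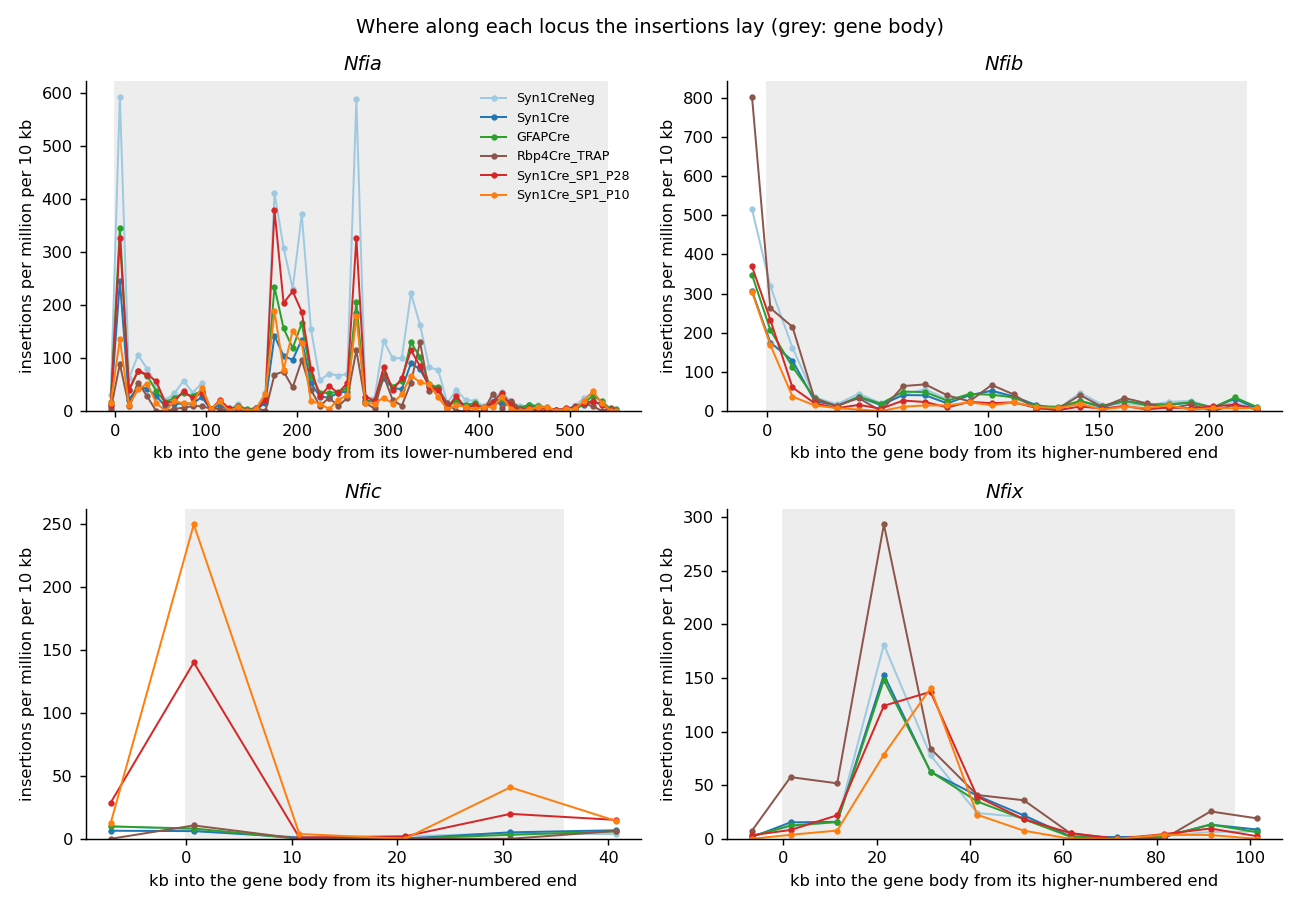
Mean IPM per 10 kb (y axes, linear from 0) along each locus (x axes, kb from the named end of the gene body; grey marks the body) in 6 groups. Nfia shows separate peaks near its lower-numbered end and in the second of 4 equal stretches, Nfib a pile at its higher-numbered end, and Nfic a rise in the SP1 groups at its higher-numbered end.

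Along Nfia the insertions gathered in few places. Of 4 equal stretches of the locus, the second held 43.1% of them in Syn1Cre and 51.7% in Syn1Cre_SP1_P28. The 10 kb at the lower-numbered end of the body (chr4:97578066-97588065), which holds the listed start, had 12.1% in Syn1Cre and 12.1% in Syn1CreNeg. The most hit single position, chr4:97757941, lies 179875 bp inside the body, had 420 insertions in the 26 C57bl6J, Syn1Cre, Syn1CreNeg, GFAPCre and GFAPCreNeg animals, and was hit in all 26. In 50 kb windows, all 12 over Nfia fell in Syn1Cre against Syn1CreNeg, by -0.75 to -1.52, where 30.9% of windows were called. In GFAPCre against GFAPCreNeg 4 of 12 fell (6.68% of all windows called), and in Syn1Cre against GFAPCre 1 of 12 fell (2.84% called), chr4:97700001-97750000, by -0.96 (adjusted p = 0.0288).

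At Nfib the higher-numbered end dominated. Of 4 equal stretches the last held 56.7% of the locus' insertions in Syn1Cre, 64.5% in Syn1CreNeg and 69.0% in Rbp4Cre_TRAP, but 43.6% in BrokenHeart and 38.0% in N2a. The outer flank at chr4:82510173-82516751, beyond the body, took 19.6% in Syn1Cre and 33.2% in Rbp4Cre_TRAP. Of 6 windows only the one at this end, chr4:82500001-82550000, fell in Syn1Cre against Syn1CreNeg (-0.77, adjusted p = 0.00148). In Syn1Cre_SP1_P28 against Syn1Cre, where 39.1% of windows were called, the other 5 fell, by -0.73 to -0.99, and this one did not (0.19, adjusted p = 0.509). In that comparison 3 of 12 Nfia windows rose, 2 of 2 Nfic windows rose and 0 of 4 Nfix windows were called. The Nfic locus starts at chr10:81386191, so most of its first window, chr10:81350001-81400000, lies outside it. That window's rise of 3.58 is therefore no value for Nfic alone. At P28 11.6% of the Nfic insertions lay in the first of 4 equal stretches of the locus, at that end.

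The strand of insertions was uneven at Nfib and Nfix in the RNA-read groups. At Nfib 66.6% lay on the plus strand in Syn1Cre and 65.2% in C57bl6J, against 46.5% of 101 insertions in BrokenHeart. At Nfix it was 67.9% in Syn1Cre and 86.1% of 72 in Syn1Cre_SP1_P10, against 58.1% of 43 in BrokenHeart. Nfia showed 45.8% in Syn1Cre and 49.2% in BrokenHeart. These shares were not tested, and which transposon end the strand column refers to is not given in the sources used here.

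**Figure D5:**
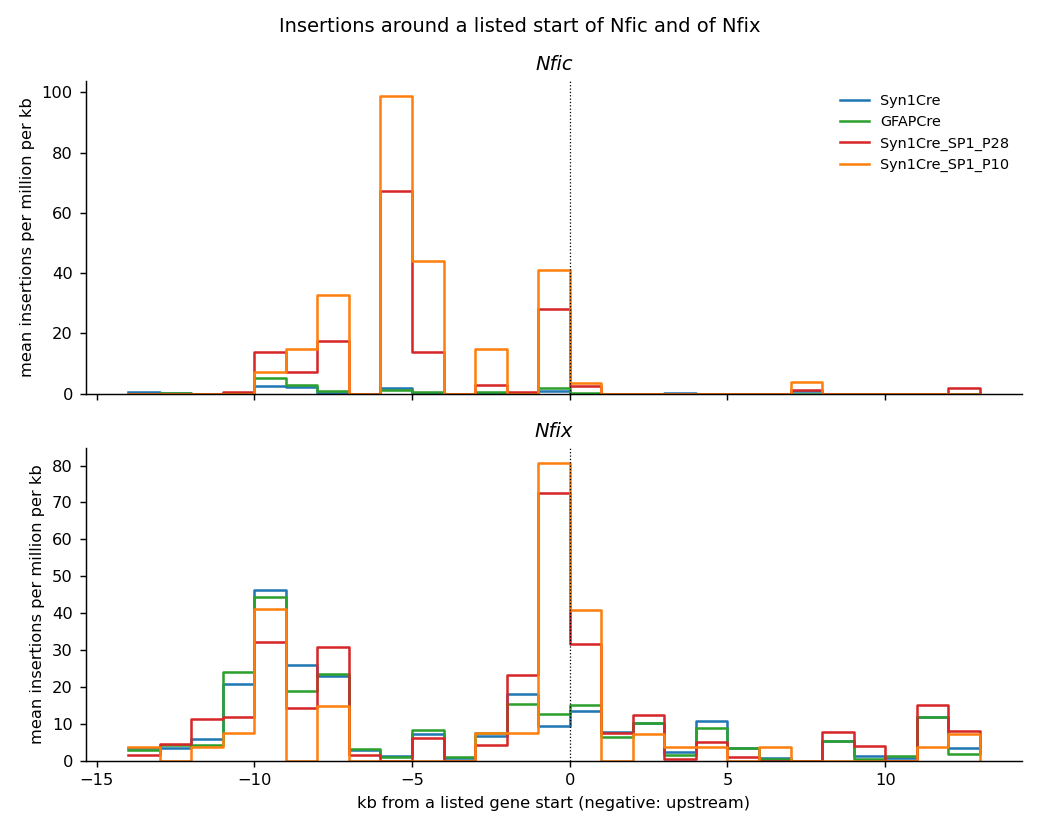
Mean IPM in 1 kb steps (y axes, linear from 0) around the listed start of Nfic and around the Nfix start whose window holds 2 GC boxes (x axes, kb from the start, negative upstream). The SP1 lines reach 67.4 (P28) and 98.8 (P10) between 6 and 5 kb upstream of the listed Nfic start. That start lies inside the body, so this stretch is just beyond the body's higher-numbered end. The SP1 lines reach 72.5 and 80.7 in the 1 kb upstream of the Nfix start.

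The SP1 insertions at Nfic lay at its promoter end. The 10 kb at chr10:81426191-81436190 held 73.2% of the locus' insertions at P28 and 79.1% at P10, from 139 and 68 insertions, against 29 of 116 insertions in Syn1Cre. The position hit most under SP1, chr10:81433159, had 40 insertions in all 7 SP1 animals, 29.5 IPM, and 2 in the 26 animals without SP1, 0.106 IPM; it lies 1240 bp beyond the body and 5986 bp from the listed start. The next were chr10:81432391 with 35 insertions (25.8 IPM) against 22 (1.17 IPM), and chr10:81431656 with 26 (19.2) against 8 (0.424). The fourth, chr10:81427557 with 25 insertions (18.4 IPM) against 17 (0.902), lies 384 bp from the listed start, just outside the printed window, which has no TTAA of its own. Within 2 kb of the listed start the 4 P28 animals had 6, 4, 7 and 11 insertions, at most 42.5 IPM, and the P10 animals 57.6, 44.6 and 31.5 IPM, against at most 2.26 in Syn1Cre.

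At Nfix the SP1 groups shifted within the locus. Insertions within 2 kb of a listed start made up 34.9% of the locus in Syn1Cre (33.1 to 37.2 by animal), 50.9% at P28 (47.6 to 54.3) and 59.7% at P10 (up to 81.2), without overlap between Syn1Cre and either SP1 group. The start windows that passed the low-count filter, 4422 at P28 and 4666 at P10, rose as a class. Their median log2 fold change by total insertions was 1.56 at P28 and 1.66 at P10. A window dense in the SP1 animals alone can pass that filter, so this is no median over all genes. Relative to that class the start windows of Nfix fell, by -0.96 and -1.38. In the printed window with 2 GC boxes, the TTAA at chr8:84773590 took 27.7 IPM at P28 and 44.1 at P10 against 4.67 in Syn1Cre. The TTAA at chr8:84773475 took 21.2 and 29.4 against 4.49. The TTAA at chr8:84773581 was hit 7 times in 4 of 4 P28 animals and 2 times at P10, and 0 times in Syn1Cre. In the neighbouring window without a GC box, the TTAA at chr8:84773000 took 9.23 IPM at P28 against 7.90 in Syn1Cre, and at P10 it took 3 insertions in 2 of 3 animals. The other TTAA there, chr8:84773064, took 2.77 at P28 and 3.68 at P10 against 1.44, from 3, 1 and 8 insertions. Outside SP1 the most hit position was chr8:84783073, with 257 insertions in the 26 animals.

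The 2 kb windows around starts were tested against the start windows that passed the filter, of which 61.7% were called at P28 and 56.8% at P10. Of the 8 tests on the 4 genes 6 were called, 2 higher and 4 lower. Nfic rose by 3.14 (SE 0.49, adjusted p = 2.61e-06) at P28 and 3.54 (SE 0.65, adjusted p = 4.47e-05) at P10. Its window held at most 2.26 IPM in Syn1Cre animals and passed the low-count filter only through the SP1 animals. The test was therefore made because Nfic was high under SP1, and its p-values are no separate evidence of the rise. Nfix fell by -0.96 and -1.38 and Nfia by -1.10 and -2.37, while Nfib, for which either end of the body was used, was not called (-0.03 and -0.31). These folds are relative to the tested start windows as a class, whose median moved by 1.54 and 1.83 by total insertions. With that scaling the share of higher calls moved from 52.3% to 97.9% and from 46.8% to 96.0%. On that scale Nfic rose by 4.59 and 5.35, Nfib by 1.59 and 1.52, and Nfix by 0.63 at P28, while Nfix at P10 (0.44) and Nfia (0.51 and -0.56) were not called. On that scale the Nfix and Nfia start windows lay below the median of the tested start windows, which was 1.56 at P28 and 1.66 at P10.

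Genes known to act with or upstream of nuclear factor I in gliogenesis were followed as a list of 13. In Syn1Cre against Syn1CreNeg, where 31.0% of all loci were called, 2 of 11 tested rose and 7 fell, with a median of -1.13 against 0.01 over all loci. Olig2 and Olig1, transcription factors of the oligodendrocyte lineage, fell the first by -2.10 (adjusted p = 1.24e-05), and Zbtb20, a repressor active in astrocyte formation, by -1.44 (adjusted p = 2.70e-05). Ski and Runx2 rose. In GFAPCre against GFAPCreNeg (8.19% of all loci called) 0 of 11 rose and 2 fell, Zbtb20 (-0.70) and Olig2 (-0.80). In Frontflip_GFAPCre against GFAPCre (1.64% called) 3 of 11 rose, Sox2, Zbtb20 and Pou3f2, and in Rbp4Cre_TRAP against Syn1Cre (2.09% called) 2 of 9 fell, Sox2 (-3.04) and Zbtb20 (-1.74).

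Of 20 genes described as regulated by nuclear factor I in neural tissue, 15 were tested in Syn1Cre against Syn1CreNeg. There 9 fell and 2 rose, with a median of -0.73 against 0.01 over all loci, of which 31.0% were called. The glutamate transporter genes Slc1a2 (-1.13) and Slc1a3 (-1.62) and the adhesion gene Cntn2 (-1.07) were among those that fell, and the glutamate receptor gene Gria1 (0.60) and Sox11 (0.49) rose. In GFAPCre against GFAPCreNeg 3 of 15 fell (8.19% of all loci called). Under SP1 2 of 17 rose and 6 fell at P28, where 51.5% of all loci were called, and 1 of 18 rose and 8 fell at P10, where 40.8% were. These are relative to the other loci, whose median moved by 0.47 and 0.55 under total-insertion scaling, and the list was not counted on that scale. In the main fit Mmd2 was higher (0.70 and 0.94) and Gria1 lower (-1.04 and -1.40) at both ages. Slc1a2 and Slc1a3 also stand in the astrocyte list, and Olig1 and Olig2 in the oligodendrocyte list, so the lists are not independent.

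The loci whose levels ran most like each gene were sought over 42 animals with at least 30000 insertions, by Pearson's r of log2(IPM + 5). These animals share libraries, depth and Cre line within groups, and r is given as a description. Nfia ran most like Zbtb20, Slc1a2 and Cpe (r = 0.96 each). Nfib ran most like Rorb (0.89), Pde4d (0.87) and Ano3 (0.86), and Nfic like Plekhg2 (0.96), Zdhhc20 (0.95) and Ppp1r18 (0.93). Nfix had no close match, the nearest being Plekha6 (0.73), Hes1 (0.72) and Nrip3 (0.70). Within the family Nfib and Nfix were closest (0.72), Nfia and Nfib followed (0.45), and Nfib and Nfic ran opposite (-0.42).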

How the data were processed

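The members and gene lists were chosen with earlier results of these data known. The authors deposited 1 table per animal (and 1 for N2a) with 1 line per insertion and its raw read count, judged from whole numbers of at least 1; per the series design in the labels, pieces of a cortex were pooled. The submitters' processing notes name Novoalign, Bowtie2 and mm10 (GRCm38), without roles; filters are not given in the sources used here. BrokenHeart starts were moved by 1 base. Lines were counted in each gene body with 10 kb on each side (RefSeq, GRCm38.p6), in 50 kb windows and within 2 kb of gene starts, and given per 1000000 lines (IPM).

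Counts were tested with edgeR 4.0.16 (TMM, filterByExpr, quasi-likelihood, R 4.3.3) over all loci, groups in pairs, with Benjamini-Hochberg adjustment and a threshold of 0.05. The fits were tested on simulated data. Alternatives were total-insertion scaling, DESeq2 1.42.0, no filter, distinct positions, at least 2 reads, gene body only, each animal left out, label layout and pools, a replicate block and, chosen after the data were seen, depth as a covariate. Named were the 4 members, the 3 most similar loci of each, nearest neighbours, and up to 3 list genes per direction by adjusted p. Labels do not say that same-numbered animals are related. The Poisson intervals of N2a and the limit for a count of 0 cover counting error only.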

Additional observations from a re-analysis of the deposited data

Results flagged for a closer look

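Among 24 sets of values tested (a gene in a group of 4 to 10 animals), 2 had an animal far from the others, and chance alone flags about 1 in 20. Nfia in Syn1Cre replicate 5 was 3631 IPM, where the other 5 animals were at 1423 to 1932. Nfia in GFAPCreNeg replicate 6 was 5941, where the others were at 3203 to 3702. Each of these tables had the fewest insertions of its group, 443158 and 208057.

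The third is a difference between ages: Nfia was higher in SP1 animals at P28 than at P10 by a log2 fold change of 0.91, with 3 of 4 P28 animals above every P10 animal.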

How the results depend on the processing

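Across the alternatives other than leaving out 1 animal at a time, 274 of the values for single genes kept direction and call, 29 gained and 22 lost the call and 25 changed sign. Counts below are of the 4 loci called, and the cause of each change was not tested. The number called over all loci moved as well. Where it is not given, here and for the replicate block, a change in the 4 loci cannot be set against it. With depth as a covariate it was 1267 in Syn1Cre against Syn1CreNeg (main 2666) and 0 in GFAPCre against GFAPCreNeg (main 754). By total insertions the count was 2 for P10 against Syn1Cre (main 4), 2 for P28 against P10 (main 1) and 3 for Rbp4Cre_TRAP (main 1). Over all loci the same fits called 4797 (main 5250), 383 (main 388) and 129 (main 224). Nfix at P28 turned to 0.10 with this scaling. In start windows that scaling turned Nfia at P28 to 0.51, Nfib to 1.59 and 1.52 and Nfix to 0.63 and 0.44; windows of 1 kb turned Nfib to 0.37 and 0.00. With distinct positions the counts were 2 (P10), 1 (BrokenHeart, main 3), 2 (Rbp4Cre_TRAP, Nfib and Nfix), 3 (Frontflip, main 1) and, of start windows, 3 (main 6; Nfic was not tested at either age, and of the other calls Nfia at P28 was lost, -0.37, adjusted p = 0.118), while called 50 kb windows in Syn1Cre against GFAPCre were 2 (main 1). Nfix then changed sign in Syn1Cre against GFAPCre (-0.01), in GFAPCre against GFAPCreNeg (-0.10), at P28 (0.06), in BrokenHeart (0.15) and in C57bl6J (-0.03). In P28 against P10 the called locus was Nfic (-0.86, adjusted p = 0.0489) in place of Nfia. With at least 2 reads the P28 against P10 count was 2, and signs changed for Nfic against GFAPCre (0.08), Nfix against Syn1CreNeg (0.11) and Nfic in Rbp4Cre_TRAP (0.03). Gene bodies alone gave 2 (P10), 2 (P28 against P10) and 2 (Rbp4Cre_TRAP), Nfib at 0.01 in GFAPCre against GFAPCreNeg and Nfix at 0.06 at P28. DESeq2 gave 2 for Rbp4Cre_TRAP (Nfib and Nfix) and 2 for Frontflip. Exact permutation tests, counted by an unadjusted p under 0.05, gave 2 (P10), 0 (P28 against P10), 3 (Rbp4Cre_TRAP) and 3 (Frontflip). Their calls in the tally above were unadjusted too, unlike those of the other fits. Nfix was at 0.12 at P28. For BrokenHeart that test cannot reach the threshold and was left out. With depth as a covariate the counts were 1 (Syn1CreNeg, main 2), 0 (GFAPCreNeg, main 1) and 2 (P28 against P10), Nfic and Nfix turned to 0.02 and 0.16 against Syn1CreNeg, and Nfia and Nfib to 0.08 and 0.09 in GFAPCre against GFAPCreNeg. The label layout as a block, or Syn1Cre animals 1 to 3 only, gave 1 in Syn1Cre against GFAPCre (main 0). Over all loci these fits called 1371 and 1634 (main 248). Shared pools gave 0 in GFAPCre against GFAPCreNeg, where 37 of all loci were called (main 754).

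Same-numbered animals share only a number (correlations of -0.21 to 0.17). The replicate block moved the counts to 4 (P28 against P10), 1 (BrokenHeart), 0 (Rbp4Cre_TRAP, Nfia at -0.61, adjusted p = 0.144), 2 (Frontflip) and 2 (C57bl6J), where Nfia turned to 0.26 and Nfic to 0.19. It gave 3 at P28 (main 2) and left 0 in Syn1Cre against GFAPCre, 2 against Syn1CreNeg, 1 in GFAPCre against GFAPCreNeg and 4 at P10.

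Leaving out 1 animal at a time gave counts of 0 to 1 (Syn1Cre against GFAPCre), 2 to 2 (Syn1CreNeg), 0 to 1 (GFAPCre against GFAPCreNeg), 2 to 3 (P28), 3 to 4 (P10), 0 to 4 (P28 against P10), 2 to 3 (BrokenHeart), 0 to 2 (Rbp4Cre_TRAP), 0 to 2 (Frontflip) and 0 to 0 (C57bl6J). The number called over all loci moved too. In P28 against P10 (main 388) it was 7 without P10 replicate 3 and 539 without P28 replicate 4. In Rbp4Cre_TRAP (main 224) it was 89, 141 and 472 without Syn1Cre replicate 6, 2 and 5. Signs changed for Nfix in Syn1Cre against GFAPCre (-0.03 to 0.09), and in C57bl6J for Nfia (-0.32 to 0.06) and Nfic (-0.14 to 0.10). Shallow tables limit Nfic in Rbp4Cre_TRAP, BrokenHeart and Frontflip animals, where at most 4 insertions were seen per animal.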
